A study of Homo sapiens with 8 samples.

Results

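The FKBP5 locus was followed through a chromatin immunoprecipitation study of mTOR, a protein kinase that couples nutrients and growth factors to cell growth, in LNCaP cells, an androgen-responsive human prostate cancer line. Its members are the mTOR peaks that touch a 250 kb window of chromosome 6, from 35.53 to 35.78 Mb on build hg38, whichever gene they were annotated to. The window held 11 of the 125713 peaks of 4 deposited lists, which merged into 7 of 61115 regions. The window was picked because FKBP5 is a classical androgen target whose peaks had already been seen to move with androgen, so what follows describes the locus and tests nothing.

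The 4 groups were shFoxA1 R1881, shFoxA1 EtOH, shEV R1881 and shEV EtOH. shFoxA1 marks cells with a short hairpin against FoxA1, a pioneer factor that opens chromatin, and shEV marks cells with the empty hairpin vector. All cells were first deprived of androgen for 48 h by growth on 2% serum stripped of steroids with charcoal. They then received 10 nM of the synthetic androgen R1881 or 0.1% of its vehicle ethanol (EtOH) for 24 h. Each group is 1 library, so no value below has a replicate error and no difference has a p-value. The sources used here do not give the number of hairpins or clones, and peak lists do not measure how far FoxA1 was depleted. No read totals come with the lists, so depth is unknown, and a peak missing from a list may have been below the caller's threshold. From such lists, fewer cells with mTOR at a site and less mTOR per cell cannot be told apart.

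The gene encodes FKBP51, an immunophilin that rides on the chaperone HSP90 in steroid receptor complexes. In prostate cells androgen induces the gene strongly through enhancers in and around it. The FK506-binding domain of FKBP51 is related to that of FKBP12, the protein through which the drug rapamycin inhibits mTOR. FKBP5 is transcribed from the minus strand, and RefSeq (GRCh38.p14) places it at chr6:35573590-35728583. It has an upstream transcription start site (TSS) at 35728583 and an internal TSS at 35688915, 39668 bp further into the gene. Distances below are counted downstream, in the direction of transcription, from the upstream TSS to the centre of a peak or region.

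The internal start site is the only one of the pair whose upstream sequence lay under a peak, and this was so in shFoxA1 EtOH alone. Both promoters are shown because they differ in sequence as well as in overlap with a peak. Each line gives the 250 bases before the TSS on the minus strand, from RefSeq, with CpG dinucleotides in capitals. The upstream promoter is chr6:35728584-35728833 and the internal promoter is chr6:35688916-35689165.
Upstream promoter: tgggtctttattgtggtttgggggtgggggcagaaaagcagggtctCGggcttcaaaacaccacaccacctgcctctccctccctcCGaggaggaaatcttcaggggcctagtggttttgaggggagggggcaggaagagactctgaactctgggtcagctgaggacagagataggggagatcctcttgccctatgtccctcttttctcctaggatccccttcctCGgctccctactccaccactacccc
Internal promoter: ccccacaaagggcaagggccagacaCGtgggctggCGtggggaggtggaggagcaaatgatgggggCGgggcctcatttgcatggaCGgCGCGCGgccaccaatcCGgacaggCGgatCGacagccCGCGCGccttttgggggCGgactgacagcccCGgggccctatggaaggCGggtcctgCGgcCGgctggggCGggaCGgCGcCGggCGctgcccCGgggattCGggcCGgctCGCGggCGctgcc
The internal promoter holds 29 CpG dinucleotides and 74.8% G and C, against 3 and 57.6% in the upstream promoter. The median over 22199 promoters of coding genes was 62.0%. From base 127 of the internal promoter to its end, 124 bases with 19 of the CpG dinucleotides lay under the shFoxA1 EtOH peak. The shEV EtOH peak lay on the transcribed side and ended 45 bp from the nearest of these 250 bases. No base of the upstream promoter lay under a peak in any list, and the nearest peak was 215 bp away, inside the gene, in shFoxA1 R1881. Neither promoter held the steroid hormone response half-site AGAACA, found in 9.84% of coding promoters of this length on either strand. Neither held its inverted repeat with a spacer of 3 bases and at most 2 mismatches over 12 bases (0.815% of promoters), nor the forkhead motifs TGTTTAC or TATTTAC (4.26%). The repeat contains the half-site, so the first pair of searches overlaps. These letters were looked for in these windows only, since no genome sequence was used for the peaks.

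mTOR peaks at FKBP5 lay in different places with and without androgen. With R1881, peaks clustered at the upstream start of the gene, in 3 regions spanning 12118 bp, and each was present in both the shFoxA1 R1881 and the shEV R1881 list. With EtOH, both lists instead had a peak at the internal start site. None of the 7 regions was present in an R1881 list and an EtOH list together, whereas 43.4% of all regions of the series were, and 19.0% were present in all 4 lists. The other 3 regions had a peak in 1 list each, 2 of them in shFoxA1 EtOH and 1 in shFoxA1 R1881.

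**Figure D1:**
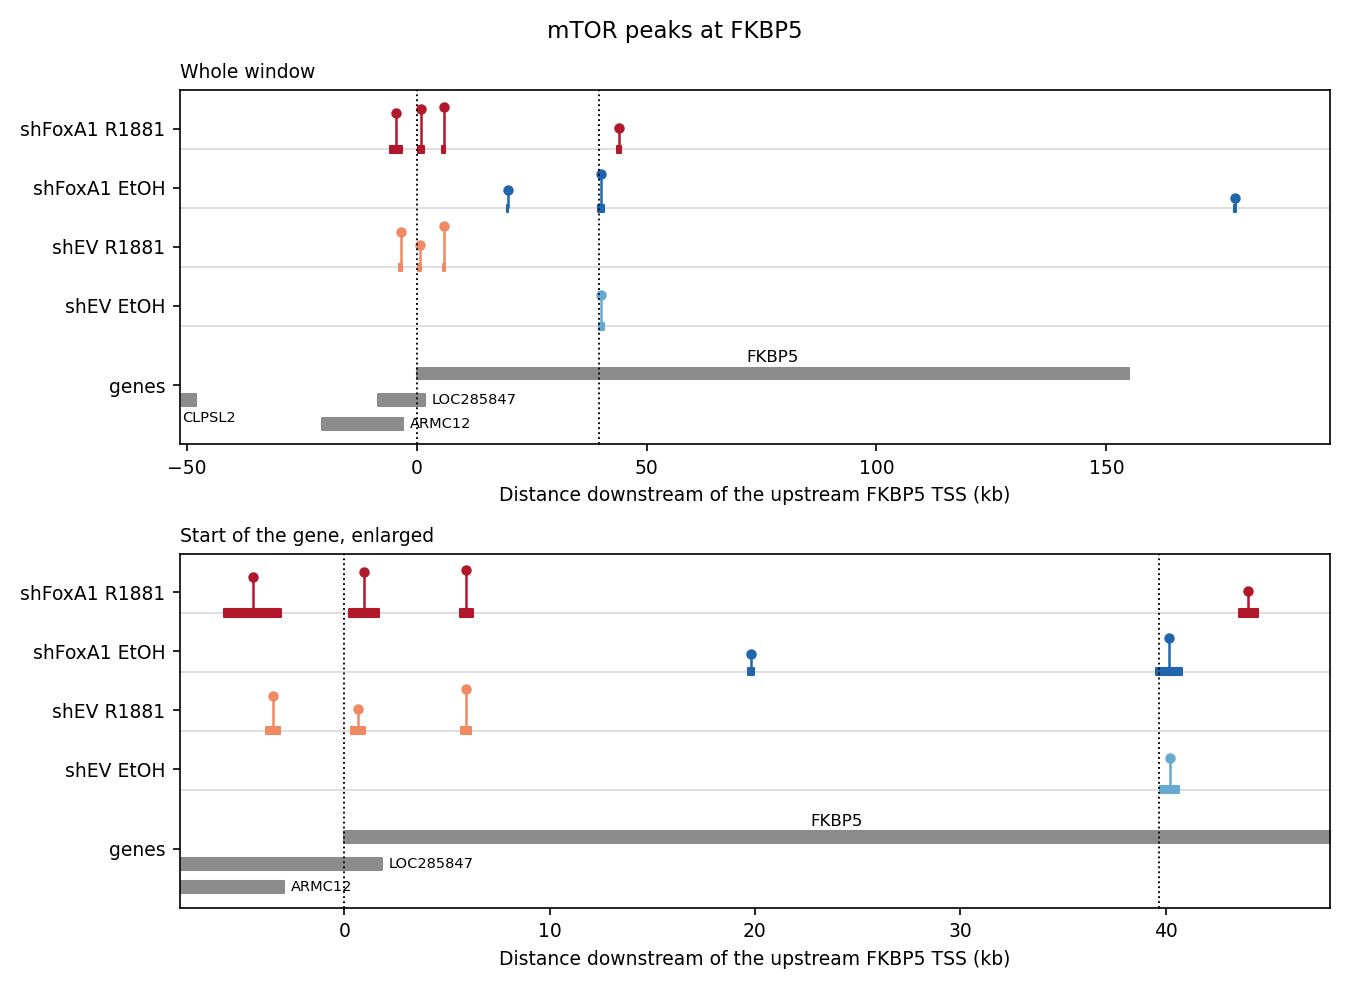
Positions of the 11 mTOR peaks against distance in kb downstream of the upstream FKBP5 TSS, over the whole window (top) and enlarged (bottom). Thick bars are peaks, stems rise with the share of the same list that scored lower (0 to 100%), dotted lines are the upstream and internal TSS, and grey bars are RefSeq coding genes and LOC285847; the R1881 peaks present with both hairpins gather at the upstream TSS, the EtOH peaks present with both hairpins sit at the internal TSS, and 1 further shFoxA1 R1881 peak lies 4372 bp beyond the internal TSS.

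The strongest region lay in intron 1 of 11, 5947 bp downstream of the upstream TSS (chr6:35722314-35722958). Its peak had the authors' score of 466 in shFoxA1 R1881 and no counterpart in shFoxA1 EtOH. In shEV R1881 the score was 339, again with no counterpart in shEV EtOH. Both R1881 libraries therefore had the peak and both EtOH libraries lacked it. The deposited score is on no stated scale and is read only within its own list. There it exceeded 96.3% of the shFoxA1 R1881 peaks (rank 1370 of 39570) and 94.3% of the shEV R1881 peaks (rank 1418 of 26074). The peak centres in the R1881 lists were 5947 and 5945 bp from the TSS, and the narrower peak, of 495 bp, lay wholly inside the 645 bp one. The sequence was annotated to an L2c element, an old LINE repeat, and contained 54.1% G and C under the shFoxA1 R1881 peak and 57.0% under the shEV R1881 peak.

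Peaks as strong as this one were rarely absent from the EtOH list of the same hairpin. In shFoxA1 R1881 1448 peaks scored 466 or more, of which 29, or 2.00%, had no overlapping peak in shFoxA1 EtOH. In shEV R1881 1481 peaks scored 339 or more, of which 51, or 3.44%, had none in shEV EtOH. Over the whole lists the shares were 44.5% and 45.0%. Among the 3219 regions that only the R1881 lists held, and both of them, the FKBP5 intron 1 region ranked 24 by its shFoxA1 R1881 score and 34 by its shEV R1881 score.

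The promoter-proximal region began 214 bp inside the gene and extended to 1692 bp (chr6:35726891-35728369). The peaks of this region were annotated to the last intron, 9 of 9, of a transcript of LOC285847, a long noncoding RNA gene that overlaps the start of FKBP5. Its score was 257 in shFoxA1 R1881, above 91.6% of that list, and 67 in shEV R1881, above 50.1% of that list. There was no peak here in shFoxA1 EtOH or shEV EtOH. The position within the list thus differed most between the hairpins here among the 3 R1881 regions. The peak spanned 1479 bp in shFoxA1 R1881 and 698 bp in shEV R1881, a ratio of 2.12. Its G and C content was high, at 61.4% and 69.1%.

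The third region lay upstream of the gene, with its centre at -4469 bp (chr6:35731674-35734431). It falls within LOC285847 and within the RefSeq span of ARMC12 (chr6:35731524-35749079), an armadillo-repeat gene. Scores were 142 in shFoxA1 R1881 and 135 in shEV R1881, above 81.5% and 79.6% of their lists, with no peak in shFoxA1 EtOH or shEV EtOH. The shFoxA1 R1881 peak was 2758 bp wide, wider than 99.6% of its list, and the shEV R1881 peak was 716 bp wide. The shorter peak, annotated to a CpG island with 68.0% G and C, was the end nearest FKBP5. The longer one reached into an AluSx repeat, and its annotation named LOC285847 as the nearest gene where the shorter one named FKBP5. Across 3198 regions of the same presence pattern with 1 peak in each list, the median width ratio of shFoxA1 R1881 over shEV R1881 was 1.09. The FKBP5 ratios of 3.85, 2.12 and 1.30, from the upstream region inward, exceeded 99.7%, 93.9% and 68.6% of them. The shFoxA1 R1881 list was also the longest, and the part of depth in these widths was not tested.

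The region of the EtOH libraries lay at the internal start site, 516 bp downstream of it and 40184 bp downstream of the upstream TSS (chr6:35687759-35689039). Its score was 134 in shFoxA1 EtOH and 105 in shEV EtOH, and neither R1881 list had a peak there. These scores exceeded 77.8% of the shFoxA1 EtOH peaks and 71.0% of the shEV EtOH peaks. The peak was 1281 bp wide in shFoxA1 EtOH and 966 bp in shEV EtOH, and the narrower lay inside the wider. It was annotated to a CpG island and was the GC-richest member, at 71.0% in shFoxA1 EtOH and 72.7% in shEV EtOH, where the list medians were 44.9% and 42.6%. Of the shFoxA1 EtOH peaks that scored at least as high, 4.44% lacked a peak in shFoxA1 R1881, and of such shEV EtOH peaks 9.09% lacked one in shEV R1881. Over all peaks in CpG islands, whatever their score, the shares without an R1881 peak were 37.8% in shFoxA1 EtOH and 48.4% in shEV EtOH, beside 37.5% and 42.6% of the whole lists.

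**Figure D2:**
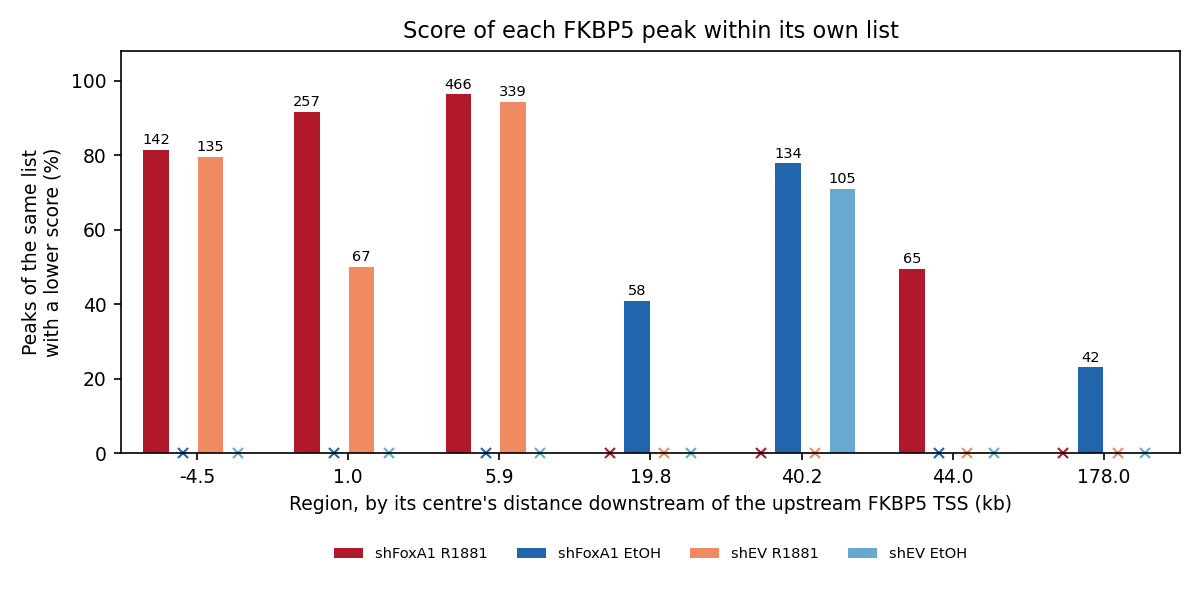
Bars give, for each of the 7 regions, the share of peaks in the same list that scored lower (%), with the authors' score above the bar and a cross where the list had no peak. Regions are ordered by the distance of their centre from the upstream FKBP5 TSS in kb; the region at 5.9 kb stands highest in both R1881 lists and the one at 40.2 kb is present in both EtOH lists alone.

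The 3 remaining regions were weaker or of middling rank, and each was called in 1 library with the FoxA1 hairpin. In shFoxA1 R1881 a peak with a score of 65 lay in intron 2 of 11, 4372 bp downstream of the internal TSS (chr6:35684076-35685011). In shFoxA1 EtOH a peak with a score of 58 lay between the start sites, at 19810 bp, in an MLT1J long terminal repeat (chr6:35708621-35708926). Another shFoxA1 EtOH peak, with a score of 42, lay beyond the end of the gene in an L1M4 repeat and was annotated to TULP1, a retinal photoreceptor gene outside the window (chr6:35550354-35550803). They exceeded 49.5%, 40.9% and 23.1% of their lists. Regions that shFoxA1 R1881 alone held made up 19.7% of all regions and those in shFoxA1 EtOH alone 14.7%.

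Much of the gene carried no peak in any list. From its 3' end, 110486 bp, or 71.3% of its 154994 bp, lay free of peaks before the first one at 35684076. None of the pseudogenes and noncoding RNA genes between the lower edge and the internal start site, among them the microRNA gene MIR5690, overlapped a region. CLPSL2, a coding gene at the other edge, had none either. Just outside the window the nearest peaks were one 2418 bp beyond the upper edge, at CLPSL1 in shFoxA1 R1881 (score 74), and one 31793 bp beyond the lower edge, at TEAD3 in shFoxA1 EtOH (score 84). The outermost members lay 45569 bp inside the upper edge and 20354 bp inside the lower one.

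The first comparison asks which peaks appear or disappear with androgen. A gained peak is one of the first list that no peak of the second overlaps by at least 1 bp, and a lost peak is the reverse. With R1881 in shFoxA1 cells, all 4 peaks of shFoxA1 R1881 were gained and all 3 peaks of shFoxA1 EtOH were lost, against 44.5% and 37.5% over the lists. With R1881 in shEV cells, all 3 peaks of shEV R1881 were gained and the 1 peak of shEV EtOH was lost, against 45.0% and 42.6%. The libraries of these comparisons are separate. The locus was picked with its peaks already seen to move with androgen, so agreement between the comparisons is no independent support. The 3 shEV gains were also gains in shFoxA1, which held for 28.5% of all peaks gained in shEV. Likewise, the shEV loss was also a loss in shFoxA1, which held for 19.5% of all peaks lost in shEV. These shares are over peaks of every score and were not matched to the scores of the FKBP5 peaks. Regions in both R1881 lists alone made up 5.27% of all regions, and regions in both EtOH lists alone made up 3.21%; the window held 3 and 1 of its 7.

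Strength bore on presence throughout the lists, with strong peaks mostly shared. Grouped in twentieths by score with ties kept together, 2.58% of the shFoxA1 R1881 peaks in the group of the intron 1 peak lacked a peak in shFoxA1 EtOH. The figure was 7.45% in the group of the promoter-proximal peak, 16.5% in that of the upstream peak and 45.8% in that of the intron 2 peak. In shEV R1881 the same shares were 7.56%, 45.5% and 18.5% for the groups of the intron 1, promoter-proximal and upstream peaks. For the internal promoter peak the shares were 13.7% in shFoxA1 EtOH and 23.7% in shEV EtOH. The weak shFoxA1 EtOH peaks scored 58 and 42, in groups where 44.6% and 54.8% lacked a peak in shFoxA1 R1881.

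**Figure D3:**
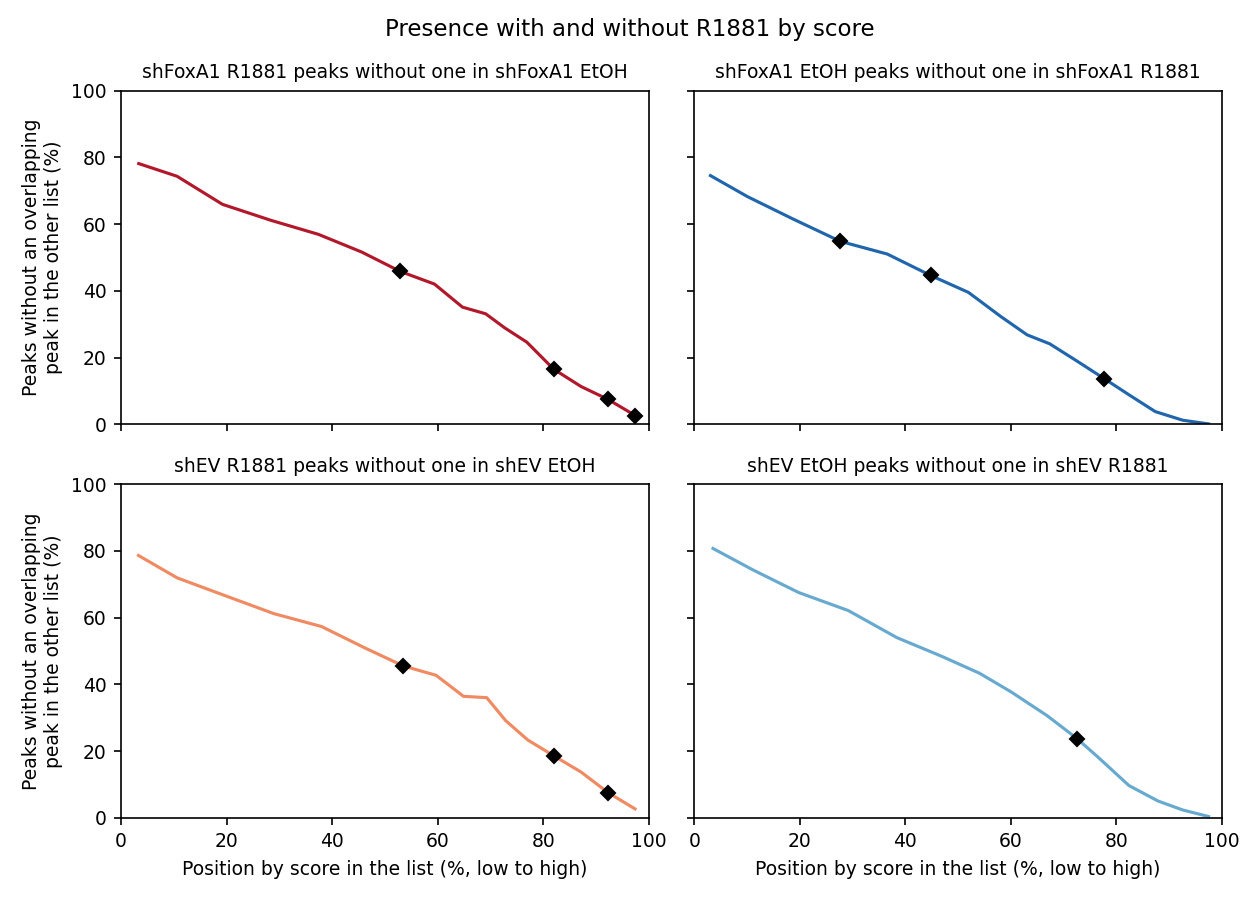
Share of peaks without an overlapping peak in the other treatment of the same hairpin (%), against position by score in the list (%, low to high, twentieths with ties kept together). Lines are whole lists and diamonds mark the groups that hold the FKBP5 peaks; the line falls with score in each panel, and the intron 1 peak sits in groups at 2.58% in shFoxA1 R1881 and 7.56% in shEV R1881.

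The second comparison asks what the FoxA1 hairpin changes. In R1881, 1 of the 4 shFoxA1 R1881 peaks was gained, the one in intron 2, and none of the 3 shEV R1881 peaks was lost, where the lists stood at 52.8% gained and 27.9% lost. In EtOH, 2 of the 3 shFoxA1 EtOH peaks were gained and the 1 shEV EtOH peak was kept, where the lists stood at 49.2% and 28.0%. Every FKBP5 peak of an empty-vector library thus had a counterpart in the hairpin library of the same treatment. These are too few peaks to set their shares apart from those of the lists. The 3 regions found in 1 list each were all from a library with the FoxA1 hairpin. The hairpin lists were also longer, with 39570 peaks in R1881 and 35121 in EtOH against 26074 and 24948 for shEV. The part of list length in these counts was not tested, nor was whether the R1881 response differed between the hairpins.

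The number of peaks at FKBP5 was ordinary. In a window of the same size and offset around each of 15843 coding genes with a RefSeq promoter, the median was 4 peaks in shFoxA1 R1881, 4 in shFoxA1 EtOH, 2 in shEV R1881 and again 2 in shEV EtOH, and FKBP5 had 4, 3, 3 and 1. The median number of regions was 7, the same as at FKBP5. What few windows had was the presence pattern: 221 genes, or 1.39%, had at least 3 regions present in both R1881 lists alone. Of these 221 windows, 35, or 15.8%, also had no region in all 4 lists, as at FKBP5, whereas 34.8% of all windows had none. The 221 windows were denser, with a median of 13 regions against 7 over all windows and 7 at FKBP5. The 15.8% and 34.8% therefore come from windows of unlike region number, which were not matched. Neighbouring genes share windows, so these counts are not of independent loci.

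By the nearest gene in the files, within 50 kb of a TSS, FKBP5 had 3 peaks in shFoxA1 R1881, 2 in shFoxA1 EtOH, 3 in shEV R1881 and 1 in shEV EtOH. The 3 in shFoxA1 R1881 include the intron 2 peak but not the upstream peak, which was assigned to LOC285847. Those in shEV R1881 are the upstream, promoter-proximal and intron 1 peaks. At 6.81% of coding genes there was a region of both R1881 lists alone, and 15 other genes had at least 3, as FKBP5 did. The 6 of them with peak numbers most like those of FKBP5, by the summed difference over the 4 lists, were GARRE1 and GNAL (3), SLC26A3, TSEN15 and ZNF518B (4) and CIMIP1 (5). GARRE1 encodes a RAC1 effector, GNAL a G protein alpha subunit and SLC26A3 an intestinal chloride transporter. GNAL, with 4, 2, 5 and 1 peaks in the same order of libraries, was the only one of the 6 that also had a region in both EtOH lists alone.

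FKBP5 was then set beside the chaperone machinery its product works in and beside genes that respond, like it, to both androgen and glucocorticoid. Of 23 genes of HSP90, its cochaperones, immunophilins and the steroid receptors they serve, 18 had a peak within 50 kb in shFoxA1 R1881, 16 in shFoxA1 EtOH, 11 in shEV R1881 and 12 in shEV EtOH. All coding genes stood at 51.6%, 49.1%, 37.5% and 36.5%. FKBP5 and FKBP4 were the 2 with a peak gained with R1881 in both shFoxA1 and shEV cells, against 12.1% of coding genes. FKBP4 encodes FKBP52, the close relative of FKBP51 in receptor complexes, and had 5, 3, 3 and 2 peaks in shFoxA1 R1881, shFoxA1 EtOH, shEV R1881 and shEV EtOH, with 1 region in both R1881 lists alone. The gene of FKBP12, FKBP1A, was assigned 1 peak in shFoxA1 R1881, 0 in shFoxA1 EtOH, 0 in shEV R1881 and 1 in shEV EtOH. Neither peak counted as gained or lost with R1881, so each overlapped a peak of the other treatment that was not counted at FKBP1A. The 0 counts thus reflect assignment to a gene within 50 kb, not a site without a peak. For 5 of the 23 genes, among them CDC37 and BAG1, no list had a peak assigned to the gene within 50 kb.

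Of 15 genes known to answer to both hormones, 14 had a peak in shFoxA1 R1881, 15 in shFoxA1 EtOH, 15 in shEV R1881 and 12 in shEV EtOH, beside the same 51.6%, 49.1%, 37.5% and 36.5% of coding genes. A peak gained with R1881 in both shFoxA1 and shEV cells was present at 9 of them, beside 12.1% of coding genes: ERRFI1, FKBP5, KLK3, NDRG1, PER1, TIPARP, TMPRSS2, TSC22D1 and ZBTB16. The gain lay in the same region in both hairpins, absent from both EtOH lists, at 6 of the 15, beside 6.81% of coding genes. FKBP5 and ZBTB16, a zinc-finger repressor gene, had 3 such regions each and ERRFI1, an inhibitor of the EGF receptor, had 2. KLK3, which encodes the prostate-specific antigen, TMPRSS2, an androgen-regulated protease gene, and TIPARP had gained peaks with each hairpin but no such region. The members with no gained peak in either comparison were SGK1, KLF9 and TSC22D3. Genes with more peaks have more that can be gained, and the lists were not matched for that. FKBP5 is itself counted in both gene lists, and its peaks were known to move with androgen when it was chosen.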

How the data were processed

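Of 8 libraries, 4 from mTOR immunoprecipitation with deposited peak lists were used; the 4 inputs were not analysed here. The submitters' processing notes name HOMER 4.11.1, MACS2, BWA 0.7.12, deepTools 3.5.0, Picard 2.0.1, Trimmomatic 0.36 and build hg38, with no role or order. Per the file headers, each list is a HOMER annotation of peaks called per library; nothing used here states the control, threshold or duplicate handling. A peak's deposited score is the authors' own value and was used within its list. The deposited GC fraction was printed as a percentage. Annotations and distances were taken as deposited.

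Peaks on chromosomes 1 to 22, X and Y were compared by overlap of at least 1 bp with Python 3.11.15 and pandas 2.3.3, and overlapping or touching peaks were merged into regions. The overlap code was checked against simulated intervals. TSS positions and promoters came from RefSeq GRCh38.p14, the same primary assembly. The locus, gene lists and rules for named genes were chosen with earlier results of these data known: all regions of the window, genes most like FKBP5 by peak number, and list genes gained in both R1881 comparisons are named, while other genes were singled out after their values were seen. The planned motif search in peaks was run on promoters instead. The values of 1 list gene are not reported here. With 1 library per group no test was run.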

Additional observations from a re-analysis of the deposited data

How the results depend on the processing

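Counts at FKBP5 were recomputed under 60 alternatives, of which 50 stayed within 1.5 times the reported count and 10 did not. Requiring overlap of 50% of the shorter peak or merging peaks up to 500 bp apart changed no count. When each list was limited to its 10000 highest-scoring peaks, the window kept 4 regions, shFoxA1 EtOH had 1 peak in it, and 1 peak was lost with R1881 in shFoxA1. With that limit on the first list alone, 1 was again lost. The gains with the FoxA1 hairpin in EtOH were then 0 with either limit, those in R1881 were 0 when absence was judged in the full shEV R1881 list, and assignment to FKBP5 within 50 kb left 1 gain in EtOH. Gains with R1881 were 3 in shFoxA1 and 2 in shEV with either limit. Within 10 kb of the TSS, 1 chaperone gene and 5 genes of the list that answers to both hormones, androgen and glucocorticoid, had gains in both R1881 comparisons, beside 4.75% of coding genes. The regions in both R1881 lists alone were 2 among the highest-scoring peaks, and none was in an R1881 and an EtOH list. The palindrome was found in neither promoter with at most 1 mismatch or in 200 bases; the same settings in peaks were not run. Depth is unknown, so absence from a list has no stated limit. No paired analysis was possible because each group is 1 library and the labels carry no replicate numbers.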

Other observations

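Tight runs of androgen-only regions were also counted. Counting places where 3 regions that both R1881 lists held, without the EtOH lists, fall within 12118 bp, the span at FKBP5, the genome had 10, FKBP5 included. FKBP5 set the limit and is therefore among the 10 by construction, as the widest of them. How many such places would be expected was not worked out. The places were found from the values and are named for that reason. Of the others, the deposited nearest genes were TSEN15 and ZNF518B, which are also among the genes most like FKBP5 in peak number, CUX2, a homeobox gene, NFKBIA, which encodes an inhibitor of NF-kappa-B and is a known glucocorticoid target, and SORD2P, a pseudogene of the androgen-induced sorbitol dehydrogenase gene. CYTOR, LSP1P4 and a pair of uncharacterised loci made up the rest. Reads at pseudogenes can map to their copies, and how well reads map at these places was not tested.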
